A study of Rattus norvegicus with 4 samples.

Results

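Mbp, Pmp22, Prx, Mag, Sox10 and Egr2 are the 6 genes described here, and all 6 were found by symbol among the 25399 genes of the feature table. They were followed through single-cell RNA sequencing of rat muscle at 12 months of age. A limb muscle, the tibialis anterior (TA), and the muscles that turn the eyeball, the extraocular muscles (EOM), were each taken from a rat group labelled wild-type (WT) and from one labelled DMD, which gives 4 libraries with 1 per group. Cells were freed by enzymatic digestion and loaded unsorted, no treatment was given, and the labels give no strain, sex, genotype or number of animals.

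The sample titles state the opposite disease state from the disease state field in all 4 samples. "Labelled DMD" here means the disease state field, and each direction between DMD and WT below is exchanged if the titles hold instead. Dmd itself, the gene that the abbreviation names, had 199, 487, 175 and 254 UMIs in the analysed cells of TA labelled WT, TA labelled DMD, EOM labelled WT and EOM labelled DMD. This order is kept wherever values of the 4 libraries follow each other below. All genes together had 6725438, 19196937, 6522986 and 12113554 UMIs in those cells, so the raw Dmd counts are not levels to compare. A 3' tag need not cover the altered part of a gene, so these counts do not settle the labels.

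Schwann cells are the glia of peripheral nerve. Some wrap a single large axon in a myelin sheath, while others hold bundles of thin axons without making myelin or sit over the neuromuscular junction. The transcription factor Sox10 marks the Schwann lineage at every stage, and Egr2 (Krox20) is the factor that turns on the myelin programme, although it is also an immediate early gene in many other cells. Mbp coats the cytoplasmic face of compact myelin, Pmp22 is a membrane protein of compact myelin that many other cells also make, Prx (periaxin) anchors the sheath to the basal lamina through Drp2 and dystroglycan, and Mag sits on the membrane that faces the axon.

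The data are counts of unique molecular identifiers (UMIs), each standing for 1 captured transcript, over 17504 barcodes. After filters and removal of likely doublets, 13557 cells were analysed, 2083, 7964, 1249 and 2261 in the 4 libraries. Their median depth was 2482, 1221.5, 3654 and 4486 UMIs. Schwann-like cells numbered 24, 103, 42 and 68, which is 1.15%, 1.29%, 3.36% and 3.01% of the analysed cells (exact binomial 95% intervals 0.740 to 1.71, 1.06 to 1.57, 2.43 to 4.52 and 2.34 to 3.80). The 6 genes were kept out of the genes used for clustering, so none of them decided which cells were called Schwann-like. Across the libraries, 22 barcode sequences occurred in more than 1 library. Each group is 1 library, so no difference below has a replicate check or a p-value. Intervals on CPM (counts for each 1000000 UMIs of the cells summed) are exact Poisson intervals, those on shares exact binomial ones, and all cover counting error only.

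Schwann-like cells fell into 3 sub-clusters. A group of 19 cells held Pllp and Mal, which encode membrane proteins of myelin, among its 10 leading genes, and 1, 8, 3 and 7 of its cells came from the 4 libraries. The other 218 cells were led by S100b (147 cells) or by Scn7a (71 cells), the latter a sodium channel gene of non-myelinating Schwann cells. They held 23, 95, 39 and 61 cells. The first sort is called Pllp-rich and the other S100b- or Scn7a-led below, since a cluster set against the rest is a description and no test. S100b does not set the second sort apart, as it was also among the 10 leading genes of the Pllp-rich cells. Pooled, it was at 3082 CPM (2775 to 3414) in Pllp-rich, 1922 (1818 to 2031) in S100b-led and 435 (347 to 539) in Scn7a-led cells. In the Pllp-rich cells none of 6 oligodendrocyte markers had a UMI, and of the 6 perineurial markers Cldn1, Krt19, Moxd1 and Perp were at 0 while Slc2a1 and Itgb4 had UMIs. The 6 summed to 479 CPM in those cells (328 to 1147 over the libraries) and to 707 in the S100b- or Scn7a-led cells (505 to 840.3). A further 2 sub-clusters, with 128 and 138 cells of TA labelled DMD, were left unnamed: the leading genes of the first included the endothelial genes Plvap and Sele, and the other was led by Plvap and Inmt and held mural markers.

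The start sites of Prx, Mag and Pmp22 are shown because these genes divided in the data below: Prx and Mag lay mostly in Pllp-rich cells within the Schwann class, while Pmp22 was present in nearly every class. The windows are the 250 bases before the RefSeq start site, on the gene's strand and 5′ to 3′, from build GRCr8. Capitals mark the letters ACAAAG, the kind of site that Sox factors bind, on either strand. The windows are chr1:91914171-91914420 (plus strand) for Prx, chr1:95291045-95291294 (minus strand) for Mag and chr10:48294682-48294931 (plus strand) for Pmp22.
Prx: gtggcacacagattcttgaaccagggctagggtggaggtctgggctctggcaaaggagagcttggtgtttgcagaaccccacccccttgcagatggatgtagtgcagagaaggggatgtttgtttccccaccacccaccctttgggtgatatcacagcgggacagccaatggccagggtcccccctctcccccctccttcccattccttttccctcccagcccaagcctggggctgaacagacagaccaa
Mag: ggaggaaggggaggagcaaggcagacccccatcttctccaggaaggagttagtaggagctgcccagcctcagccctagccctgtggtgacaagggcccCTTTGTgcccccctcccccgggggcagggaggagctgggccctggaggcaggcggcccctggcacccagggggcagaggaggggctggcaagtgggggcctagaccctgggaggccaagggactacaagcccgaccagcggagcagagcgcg
Pmp22: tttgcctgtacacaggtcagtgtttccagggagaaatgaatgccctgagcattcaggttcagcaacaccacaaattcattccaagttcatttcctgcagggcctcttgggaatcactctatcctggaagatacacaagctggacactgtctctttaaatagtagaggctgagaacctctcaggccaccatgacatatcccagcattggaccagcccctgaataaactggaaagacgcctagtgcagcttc
Of the 6 genes, 5 matched the RefSeq promoter table, Sox10 being the one without an entry. ACAAAG was found 152 bases before the Mag start on the opposite strand and in the window of 1 of the 2 Mbp starts. Of all 33469 windows of this length, 16.3% held it. The related letters ACAATG were in 11.1% of all windows and, among the 6 genes, in that same Mbp window. The Egr letters GCGGGGGCG and GCGTGGGCG, in 2.45% and 0.478% of all windows, were in no window of the 6 genes. A match is a description of letters and not a measured site.

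Mbp was high in Pllp-rich cells and low in the other Schwann sort. Its summed level in those cells was 7888 CPM (5942 to 10267), 6376 (5598 to 7233), 8272 (7297 to 9341) and 6579 (5832 to 7395) in the 4 libraries. In S100b- or Scn7a-led cells it was 89.7 CPM (38.7 to 177), 120.0 (81.0 to 171), 118 (75.4 to 175) and 206 (159 to 263). The sorts did not overlap in any library, and every one of the 19 Pllp-rich cells had Mbp, at 1502 to 12100.0 CPM per cell with a median of 6552. Mbp was not absent from the other sort: 70 of 218 cells (32.1%, 26.0 to 38.7) had a UMI, at no more than 5 UMIs a cell, against 0.411% of 4864 endothelial-like cells, at median depths of 3320.5 and 2228 UMIs. With cells of at least 1000 UMIs thinned to that depth, the shares were 18.7% of 182 cells and 0.271% of 4066 cells. The gap between these classes remained at equal depth. Within that sort the Scn7a-led cells had 285 CPM (215 to 371) and the S100b-led cells 107 (83.9 to 136) when pooled. By library the Scn7a-led cells had 333, 344, 223 and 272 CPM and the S100b-led cells 28.1, 80.1, 102 and 169.7, and the intervals overlapped in both EOM libraries.

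Pmp22 was the broadest of the 6 genes. In Pllp-rich cells it reached 18643 CPM (15576 to 22137), 15072 (13862 to 16359), 22430.1 (20805 to 24149) and 19478 (18177 to 20848) in the 4 libraries. In S100b- or Scn7a-led cells it was 2053 CPM (1766 to 2372), 2280.3 (2097 to 2475), 2073 (1880.3 to 2280.5) and 2057 (1901 to 2223). In the second sort the intervals of the 4 libraries overlapped. A UMI of Pmp22 was in 19 of 19 Pllp-rich cells, in 91.3% of the others, in 58.0% of FAP/fibroblast-like cells (fibro-adipogenic progenitors and fibroblasts) and in 19.0% of endothelial-like cells. Outside Schwann-like cells the pooled level was 1038 CPM in tenocyte-like, 982 in mast-like, 617 in FAP/fibroblast-like, 349.7 in satellite-like (muscle stem cell) and 322 in mural-like cells, down to 21.3 in myofibre-like cells. Of the 419 tenocyte-like cells, 300 were in 1 cluster, 286 of them from TA labelled DMD. Its leading genes held the tenocyte markers Thbs4 and Fmod but also the perineurial markers Itgb4 and Cldn1, so the class name is loose. FAP/fibroblast-like cells held 29.8% of the Pmp22 UMIs of all barcodes, more than the 11.5% and 9.34% of the Pllp-rich and the S100b- or Scn7a-led cells together.

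Prx separated the Schwann sorts almost wholly. Pllp-rich cells had 2008 CPM (1098 to 3369), 1291 (955 to 1707), 1304 (936 to 1769.6) and 2411 (1968 to 2925) in the 4 libraries, from 14, 49, 41 and 103 UMIs. In S100b- or Scn7a-led cells it had 3 UMIs in 3 cells of TA labelled DMD (12.0 CPM) and none in the other libraries. A UMI was found in 18 of 19 Pllp-rich cells and in 1.38% of the others (0.285 to 3.97). That share lay below the 4.19% (3.65 to 4.80) of endothelial-like cells, and with cells thinned to 1000 UMIs the shares were 1.10% and 1.60%.

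Prx was also found in endothelial-like cells of every library. Endothelial-like cells had 19.1 CPM (15 to 24), 13.8 (11 to 17.1), 21.2 (14.3 to 30.3) and 16.2 (10.6 to 23.7), with overlapping intervals, at no more than 2 UMIs a cell. In TA labelled WT the endothelial-like cells had 74 Prx UMIs beside 2 of Mbp, while the Pllp-rich cell there had 25.5 Prx UMIs per 100 of Mbp. The part of free RNA in the endothelial Prx was not tested. Macrophage/monocyte-like cells had no Prx UMI, where 3 counts would allow 1.26% of cells with a UMI, a limit on detection and not on expression. As a share of the library's Prx UMIs over all barcodes, endothelial-like cells held 71.8%, 27.5%, 33.7% and 7.85%.

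Mag was the rarest of the 6 genes, with 63 UMIs in all analysed cells. Pllp-rich cells had 430.2 CPM (88.7 to 1257, from 3 UMIs), 237 (108 to 450.2, 9 UMIs), 286 (131 to 544, 9 UMIs) and 538 (341 to 808, 23 UMIs) in the 4 libraries. The intervals of the 4 libraries overlapped. S100b- or Scn7a-led cells had no Mag UMI among 853752 UMIs, which allows up to 3.51 CPM, and none in 218 cells, where 3 counts would allow 1.38% of cells with a UMI. A cell without a captured UMI may still express the gene. Endothelial-like, mural-like, FAP/fibroblast-like and satellite-like cells also had none. The Mag UMIs outside Pllp-rich cells were 17 in tenocyte-like cells and 2 in the unnamed sub-clusters.

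**Figure D1:**
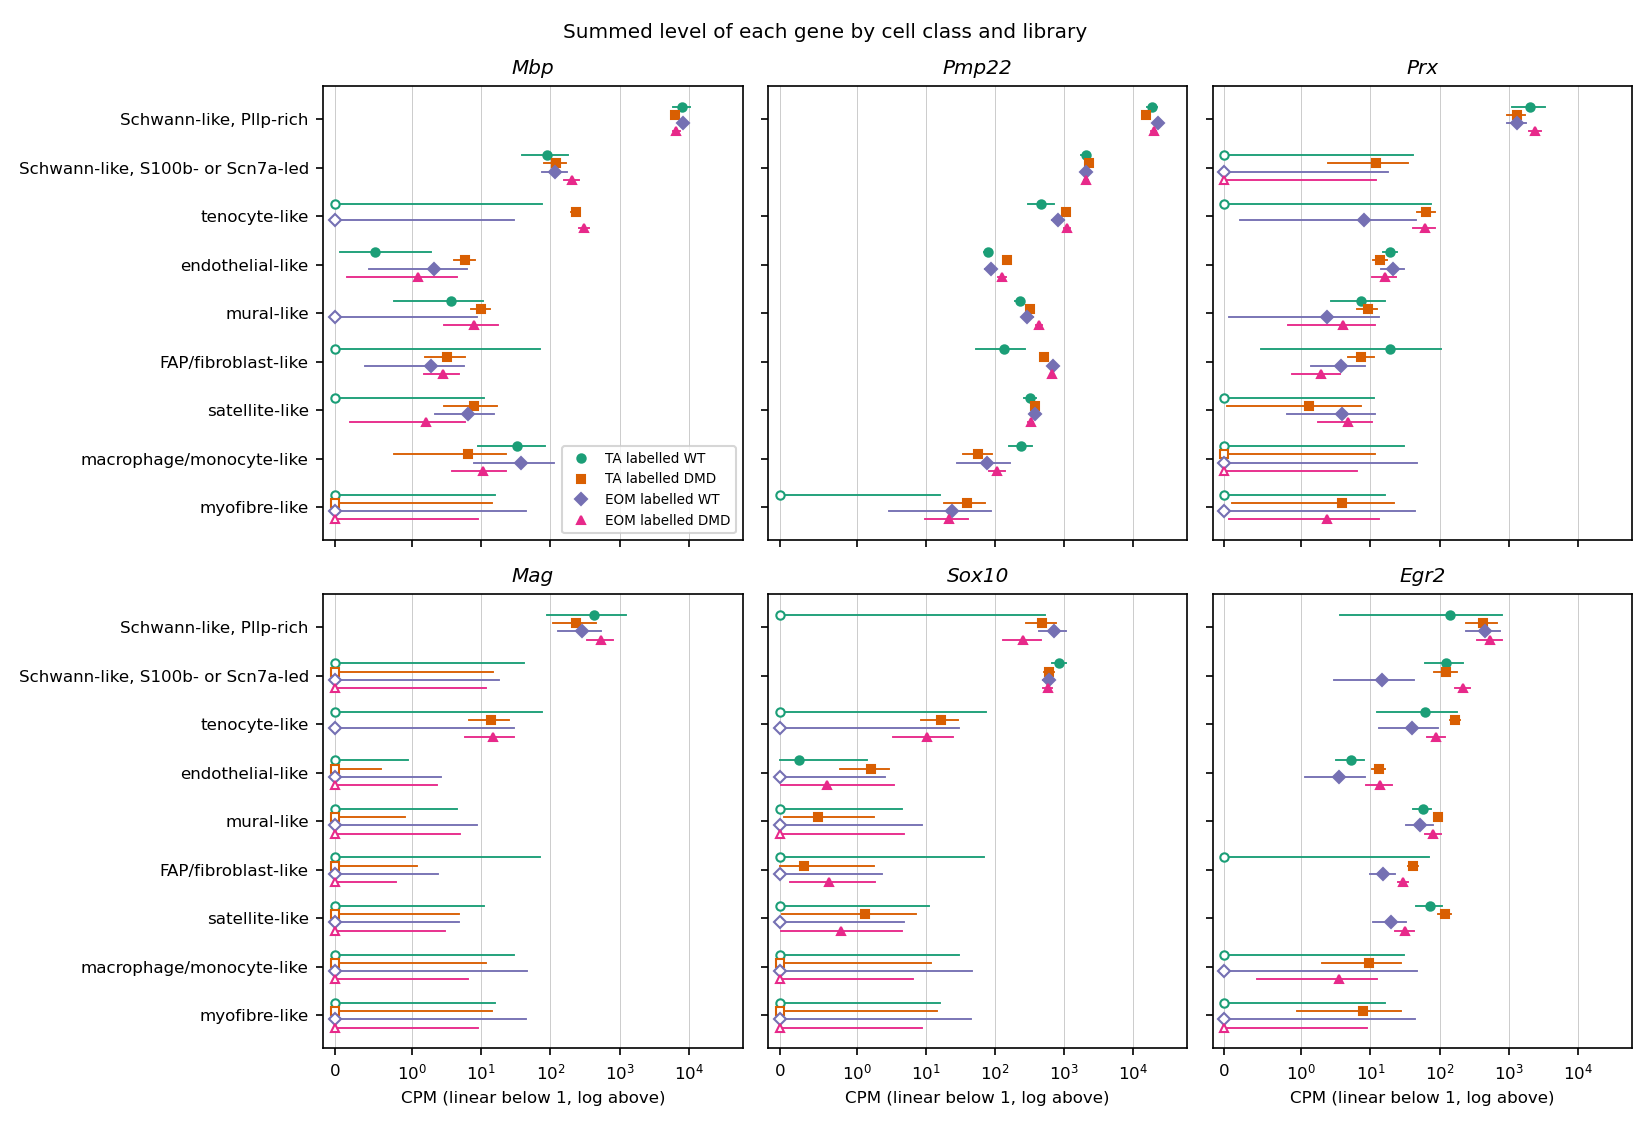
Summed CPM of each gene (horizontal axis, linear below 1 and logarithmic above) in 9 cell classes, with 1 point for each library and lines for the exact Poisson 95% intervals. Open points are classes with no UMI of the gene. Mbp, Prx and Mag lie highest in the Pllp-rich row, Sox10 in both Schwann rows, and Pmp22 and Egr2 spread over most classes.

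The transcription factor Sox10 did not divide the sorts in this way. In S100b- or Scn7a-led cells it stood at 852 CPM (672 to 1067), 608 (515 to 713), 598 (497 to 714) and 579.5 (498 to 671) in the 4 libraries. In Pllp-rich cells it was at 0 in the 1 cell of TA labelled WT (a limit of 430.2 CPM), then 474 CPM (281 to 749.6), 699.9 (439 to 1059.7) and 258 (129 to 461). The intervals of the sorts overlapped in TA labelled DMD and EOM labelled WT, while the Pllp-rich cells were lower in EOM labelled DMD and in the single cell of TA labelled WT. A UMI was in 14 of 19 Pllp-rich cells and in 174 of 218 others, 73.7% (48.8 to 90.9) and 79.8% (73.9 to 84.9).

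Sox10 was also the gene most confined to the Schwann class. S100b- or Scn7a-led cells held 70.7% of its UMIs in all barcodes and Pllp-rich cells 6.80%. Endothelial-like cells had 12 UMIs (0.920 CPM, in 0.247% of cells), and macrophage/monocyte-like, myofibre-like and lymphatic endothelial-like cells had none. The share of Schwann-like cells with a Sox10 UMI was 87.5%, 63.1%, 97.6% and 89.7% in the 4 libraries. Cells under 1000 UMIs were left out of thinning, 4, 34, 0 and 0 of them in the 4 libraries. With the other cells thinned to 1000 UMIs the share was 45.0%, 43.5%, 38.1% and 48.5%, and TA labelled DMD was no longer the lowest.

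Egr2 was found in both Schwann sorts and in many other classes. Pllp-rich cells had 143 CPM (3.63 to 799, from 1 UMI), 422 (241 to 685), 445 (244 to 747) and 538 (341 to 808) in the 4 libraries, and 13 of 19 cells (68.4%) had a UMI. In S100b- or Scn7a-led cells the levels were 123 CPM (61.6 to 221), 124 (84.3 to 176), 14.7 (3.03 to 43.0) and 216 (167 to 274), from 11, 31, 3 and 67 UMIs. EOM labelled WT was the low library of this sort, and its interval met none of the others. Pooled, the Scn7a-led cells had 321 CPM (246 to 412) and the S100b-led cells 75.7 (56.2 to 99.8), but 48 of the 62 Scn7a-led UMIs were from EOM labelled DMD (436 against 94.8 CPM). In TA labelled DMD the values were 132 CPM (42.9 to 308) and 123 (80.1 to 179.6), in TA labelled WT 445 (8 UMIs) and 42.2 (3 UMIs), and EOM labelled WT had 1 and 2 UMIs.

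Most Egr2 was not in Schwann-like cells. Mural-like cells, the pericytes and smooth muscle of vessels, held 27.3% of its UMIs in all barcodes, while the Pllp-rich and the S100b- or Scn7a-led cells held 2.90% and 6.02%. The pooled level was 125 CPM in tenocyte-like, 107 in mast-like, 84.3 in mural-like, 54.1 in satellite-like, 36.9 in dendritic-like, 31.0 in FAP/fibroblast-like and 9.89 in endothelial-like cells. Most tenocyte-like cells were in the cluster described above, led by perineurial as well as tenocyte markers. In satellite-like cells Egr2 was at 72.1 CPM (46.2 to 107), 118 (94.5 to 145), 19.7 (11 to 32.5) and 31.3 (22.3 to 42.8) in the libraries. The TA libraries were both above the EOM libraries there, with ratios of TA over EOM of 3.66 in the libraries labelled WT and 3.75 in those labelled DMD. Both passed 2-fold, as did 2.68% and 5.79% of the genes tested in satellite-like cells in that direction. Libraries filled the satellite-like clusters unequally. The shallower one (median 896.5 UMIs against 5597) held 237 cells of TA labelled DMD and 3 of EOM labelled DMD. The part of this in the ratios was not tested.

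**Figure D2:**
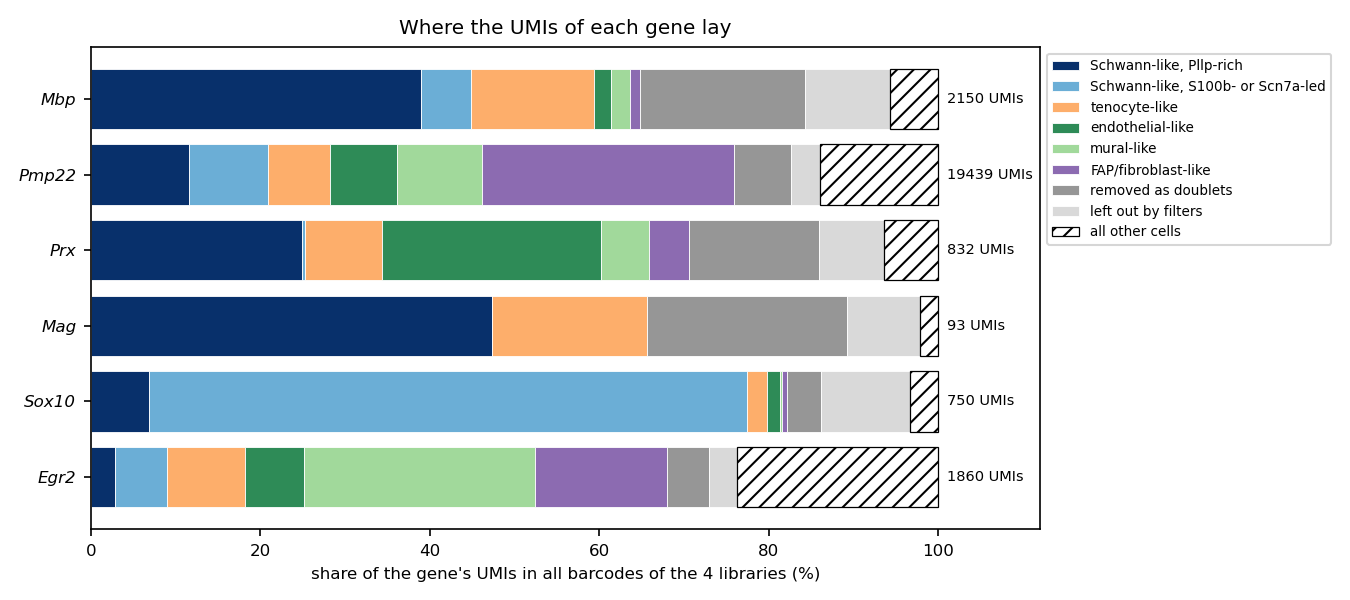
Share of each gene's UMIs in all 17504 barcodes (horizontal axis, %) by where the barcode was placed, with the total UMIs at the right. Sox10 lies mostly in S100b- or Scn7a-led cells, Mbp and Mag in Pllp-rich cells, tenocyte-like cells and removed doublets, and Pmp22 and Egr2 mostly outside the Schwann class.

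Detection of the 6 genes was also counted cell by cell. Of the 19 Pllp-rich cells, 8 had a UMI of all 6 genes, 7 of 5, 2 of 4 and 2 of 3. Mbp and Pmp22 were each in all 19 cells, Prx in 18 and Mag in 14, so their overlaps are set by these counts. Sox10 was with Egr2 in 10 cells (52.6%, 28.9 to 75.6), where the product of their single shares gives 50.4%. In the 218 other cells Pmp22 was with Sox10 in 169 cells (77.5%, product 72.9%), Mbp with Sox10 in 63 (28.9%, product 25.6%), Sox10 with Egr2 in 40 (18.3%, product 16.5%) and Mbp with Egr2 in 18 (8.26%, product 6.63%). Each of these lay a little above the product with all UMIs. With 182 cells thinned to 1000 UMIs the pairs were at 36.8% (product 37.9%), 6.59% (8.42%), 3.85% (3.71%) and 2.20% (1.54%), and at both depths the product lay inside the counting interval of each of these 4 pairs.

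**Figure D3:**
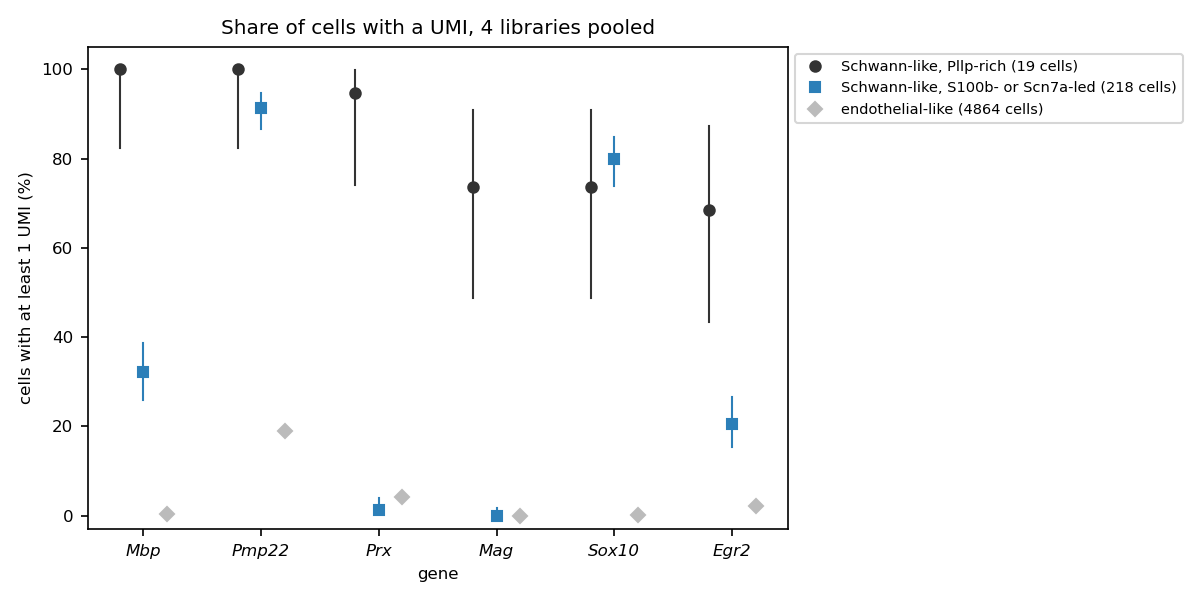
Share of cells with at least 1 UMI of each gene (vertical axis, %) in Pllp-rich, S100b- or Scn7a-led and endothelial-like cells of the 4 libraries pooled, with exact binomial 95% intervals. Pmp22 and Sox10 are in most cells of both Schwann sorts, whereas Prx and Mag are near 0 outside the Pllp-rich cells.

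Other genes of peripheral myelin followed the same division. Among 15 such genes, Cldn19, a tight junction gene of myelin, had 1184 CPM in Pllp-rich cells and 2.34 in the other sort, and Drp2, the partner of Prx, had 445 and 0. Ncmap had 277 and 0, and Dusp15 353 and 0. In the other direction, Ngfr, the low-affinity neurotrophin receptor, had 0 and 49.2 CPM, the adhesion gene L1cam 0 and 185, and Scn7a 8.40 and 979. These genes took part in the clustering and are given as a description of the sorts.

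The genes whose levels followed each of the 6 most closely were looked for over 32 groups of class and library with at least 50 cells, among 4475 genes, by Pearson's r of log2(CPM + 10). Groups of 1 library share its depth and its free RNA, and the Schwann class is represented by TA labelled DMD and EOM labelled DMD alone, so these values rest on few groups. Among the 5 closest, Mbp followed Sfrp5 (0.966) and Cldn19 (0.954), Mag followed Sfrp5 (0.993) and Cldn19 (0.965), and Prx followed Pllp (0.962), Egfl8 (0.952) and Arhgef26 (0.943). Sox10 followed Igsf11 (0.991), Sox2 (0.989) and Bche (0.989). Egr2 followed Pmp22 (0.862) and Rnd3 (0.851), and Pmp22 followed Hspa13 (0.905) and Tusc3 (0.889). Among the 6 genes the highest value was that of Mbp with Mag (0.957) and the lowest that of Sox10 with Egr2 (0.562).

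A large part of the myelin RNA lay outside the cells named Schwann-like. To describe where, the 28 barcodes with at least 20 Mbp UMIs were taken from all barcodes, a threshold chosen after the data were seen. The lowest of them had 22 Mbp UMIs, and the next barcode below had 18. They held 73.7% of all Mbp UMIs, which the threshold itself used, and 86.0% of all Mag, 43.5% of all Prx, 19.5% of all Pmp22, 11.5% of all Sox10 and 7.20% of all Egr2 UMIs. Of these barcodes, 15 were Pllp-rich cells, 6 were removed as doublets, 4 were tenocyte-like and 3 were left out by the filters. The 6 doublets were all from EOM labelled DMD, held 12299 to 43567 UMIs each, and had 399 Mbp and 22 Mag UMIs, which is 35.9% and 37.3% of that library's.

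The tenocyte-like signal lay in few barcodes. Tenocyte-like cells had 167 Mbp UMIs in TA labelled DMD, 145 in EOM labelled DMD and none in either library labelled WT, which held 6 and 19 such cells. Of these UMIs, 128 lay in 3 barcodes of TA labelled DMD and all 145 in 1 barcode of EOM labelled DMD that held 47372 UMIs. Per 100 Mbp UMIs, tenocyte-like cells of TA labelled DMD had 27.5 Prx and 5.99 Mag, where its Pllp-rich cells had 20.2 and 3.72. In EOM labelled DMD the values were 20 Prx and 4.83 Mag, where Pllp-rich cells had 36.7 and 8.19. The 4 tenocyte-like barcodes had 80 to 108 UMIs of 6 perineurial markers and 100 to 518 of Dcn, a fibroblast gene, whereas the 15 Pllp-rich cells had 0 to 8 and 0 to 2. These counts are not set to equal depth: the former held 20470 to 47372 UMIs each and the latter 3581 to 16392. Whether the tenocyte-like barcodes held more than 1 cell was not tested.

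**Figure D4:**
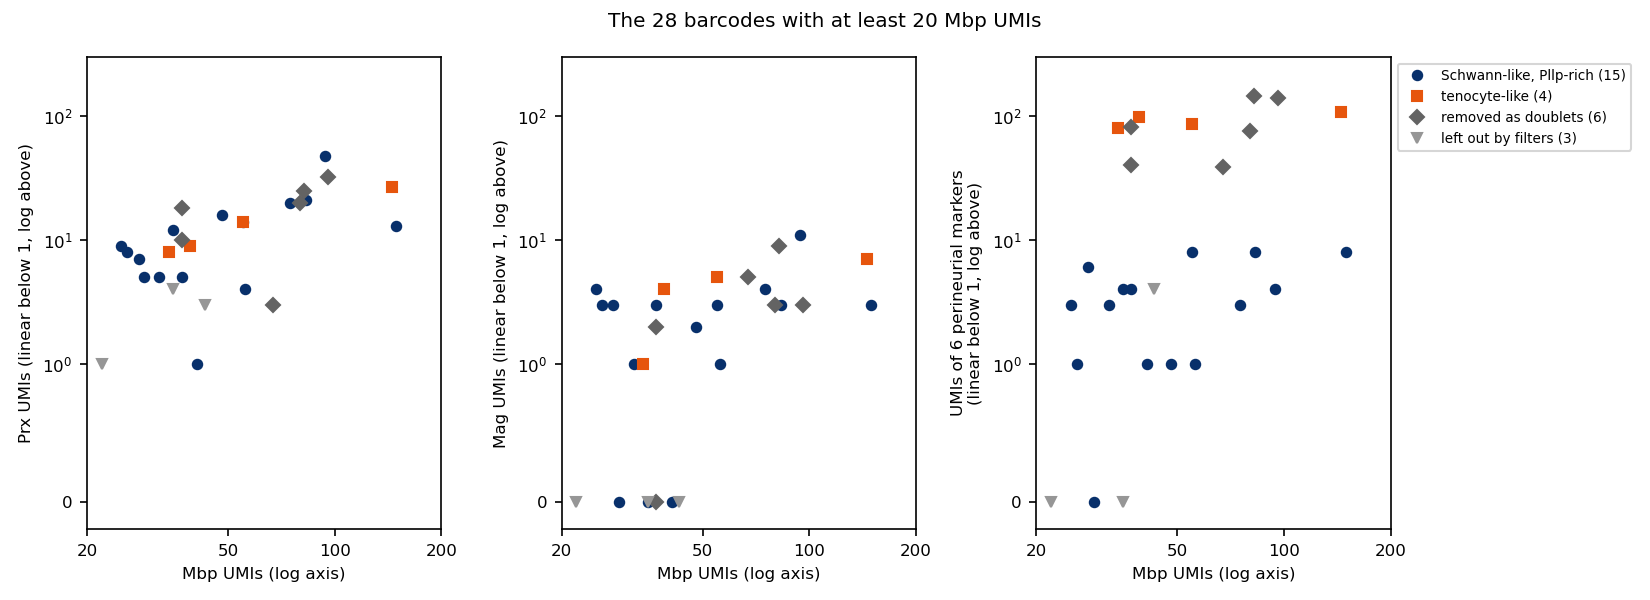
The 28 barcodes with at least 20 Mbp UMIs, with Mbp UMIs (horizontal, log axis) against Prx, Mag and the sum of 6 perineurial markers (vertical, linear below 1 and logarithmic above). Prx and Mag overlap between the Pllp-rich cells, the tenocyte-like barcodes and the removed doublets, and the last 2 kinds carry 39 to 144 perineurial UMIs where the Pllp-rich cells have at most 8. Counts are not set to equal depth, with 12299 to 47372 UMIs in the last 2 kinds and 3581 to 16392 in the Pllp-rich cells.

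The remaining Mbp outside Schwann-like cells was low but uneven. Macrophage/monocyte-like cells had 32.7 CPM (8.92 to 83.8), 6.39 (0.773 to 23.1), 38.0 (7.84 to 111) and 10.5 (3.85 to 22.8) in the 4 libraries, from 15 UMIs in all. Their share with a UMI, 5.86% (3.24 to 9.63), lay above the 0.411% (0.251 to 0.634) of endothelial-like cells at median depths of 2540.0 and 2228 UMIs. In endothelial-like cells TA labelled DMD stood out, with 36 Mbp UMIs (5.85 CPM) against 2, 3 and 2 in the other libraries, and up to 10 in 1 cell.

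The design asks next how the libraries labelled DMD differed from those labelled WT in each muscle. In TA, none of the 6 genes passed 2-fold in Schwann-like cells, on log2(CPM + 10), where 16.4% of 5518 genes with at least 10 UMIs did so in either direction (11.3% higher, 5.02% lower). In EOM, 1 of the 6, Egr2, was past 2-fold higher, where 4.51% of 6503 genes were higher, 4.03% lower and 8.53% either. The median log2 difference of the 6 genes was 0.29 in TA and 0.23 in EOM, beside 0.06 and -0.00 over all genes tested. These ratios compare libraries and not conditions.

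Egr2 in Schwann-like cells was at 125 CPM (64.5 to 218), 163 (119.9 to 217), 72.2 (42.1 to 116) and 255 (205 to 313) in the 4 libraries. EOM labelled DMD was the high library and EOM labelled WT the low one, with no overlap between their intervals, while the TA intervals overlapped. EOM labelled DMD had a CPM 3.53 times (2.09 to 6.32) that of EOM labelled WT, and TA labelled DMD 1.31 times (0.683 to 2.71) that of TA labelled WT. Without the Pllp-rich cells the EOM ratio was 14.7 (4.81 to 72.9), also past 2-fold, as 4.88% of genes were, but it set 67 UMIs against 3, and 12 of the 67 were in 1 cell. The share of Schwann-like cells with an Egr2 UMI was 20.8%, 22.3%, 11.9% and 36.8% in the 4 libraries. Among cells with at least 1000 UMIs, thinned to that depth, it was 10.0%, 13.0%, 4.76% and 13.2%.

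Other immediate early genes moved with Egr2 in that comparison. In Schwann-like cells 5 of 7 tested (Egr2 not among them) were past 2-fold higher in EOM labelled DMD, as 4.51% of all genes were. The median log2 difference was 1.32 and the summed level 20877 against 9161 CPM. Egr1, a relative of Egr2, was at 3643 and 1019 CPM (3.57-fold), Atf3 at 1758 and 476 (3.70-fold), Junb at 4336 and 1661 (2.61-fold) and Nr4a1 at 1067 and 420.4 (2.54-fold). The fifth, Fosb, named after its values were seen, was at 1407 and 590.3 CPM. In TA none of the 7 was past 2-fold, where 16.4% of all genes were in either direction, and their median was -0.03. Immediate early genes respond to cell dissociation as well as to signals in tissue, and their part in the Egr2 difference was not tested. Egr2 was also higher in EOM labelled DMD in endothelial-like cells (13.7 against 3.54 CPM, 3.87-fold, 1.43 to 13.1) and in FAP/fibroblast-like cells (29.6 against 15.3, 1.94-fold, 1.25 to 3.13), and the interval in mural-like cells included 1 (79.8 against 52.6, 1.52-fold, 0.918 to 2.60). The EOM libraries filled the endothelial-like clusters unequally, as given below for Pmp22, and the part of this in the ratio was not tested.

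Mbp had opposite directions in the muscles. Over all Schwann-like cells it was at 655 CPM (504 to 838), 945 (836 to 1064), 1206 (1069.9 to 1355) and 976 (876 to 1085). TA labelled DMD stood above TA labelled WT by 1.44 times (1.09 to 1.93), with a log2 difference of 0.52, and EOM labelled DMD below EOM labelled WT, with a log2 difference of -0.30. These sums follow the few Pllp-rich cells: 1 of 24, 8 of 103, 3 of 42 and 7 of 68 cells. Without them, Mbp in EOM labelled DMD was above EOM labelled WT, 206 against 118 CPM, a ratio of 1.75 (1.08 to 2.93), so the direction in EOM turned. In TA the ratio without them was 1.34 (0.599 to 3.38), and the log2 difference turned to -0.09 when the shallow unnamed sub-cluster was added.

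Pmp22 had the same pattern at a smaller size. Over all Schwann-like cells it was at 3256 CPM (2905 to 3637), 3966 (3739.7 to 4203), 4790.5 (4515 to 5078) and 4164 (3953 to 4382) in the 4 libraries. TA labelled DMD over TA labelled WT was 1.22 (1.07 to 1.38), and EOM labelled DMD over EOM labelled WT was 0.869 (0.804 to 0.940). Without the Pllp-rich cells the ratios were 1.11 (0.939 to 1.32) and 0.992 (0.876 to 1.12), and with the shallow unnamed sub-cluster added the TA log2 difference turned from 0.28 to -0.26. In endothelial-like cells Pmp22 was at 78.8 CPM (70.2 to 88.2), 147 (138 to 157), 86.3 (71.6 to 103) and 127 (111 to 146). Both libraries labelled DMD were above their WT counterparts there, by 1.87 times (1.64 to 2.14) in TA and 1.48 times (1.18 to 1.86) in EOM. Mural-like cells had ratios of 1.43 (1.22 to 1.68) and 1.47 (1.19 to 1.82), and satellite-like cells 1.16 (0.924 to 1.46) and 0.862 (0.740 to 1.01). Libraries filled the clusters of these classes unequally. Of 1554, 2208, 542 and 560 endothelial-like cells, the cluster led by Ca4 and Kdr held 1006, 212, 288 and 95. The cluster led by Plvap held 12, 617, 6 and 20. Of 191, 2021, 92 and 177 mural-like cells, a shallow cluster (median 777 UMIs) held 20, 1119, 2 and 32. The part of this in the Pmp22 ratios was not tested.

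Prx, Mag and Sox10 did not pass 2-fold in either muscle. Prx over all Schwann-like cells was at 146 CPM (79.6 to 244), 181 (135 to 237), 174 (125 to 236) and 292 (238 to 354), and the ratio in EOM was 1.67 (1.16 to 2.47) and that in TA 1.24 (0.677 to 2.42). Mag was at 31.2, 31.3, 38.2 and 65.1 CPM, with ratios of 1.70 (0.759 to 4.18) in EOM and 1.0 (0.25 to 5.75) in TA, intervals that include 1. The Prx and Mag UMIs came from the Pllp-rich cells save 3 of Prx, so EOM labelled DMD rests on 7 cells, 1 of which held 48 of its 103 Prx UMIs and 11 of its 23 Mag UMIs. Sox10 was at 791 CPM (623 to 989.5), 590.4 (505 to 686), 612 (516 to 720.0) and 541 (467 to 623). TA labelled WT was the highest of the 4, at a ratio of TA labelled DMD over TA labelled WT of 0.747 (0.567 to 0.992), and EOM labelled DMD over EOM labelled WT was 0.884 (0.708 to 1.11).

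**Figure D5:**
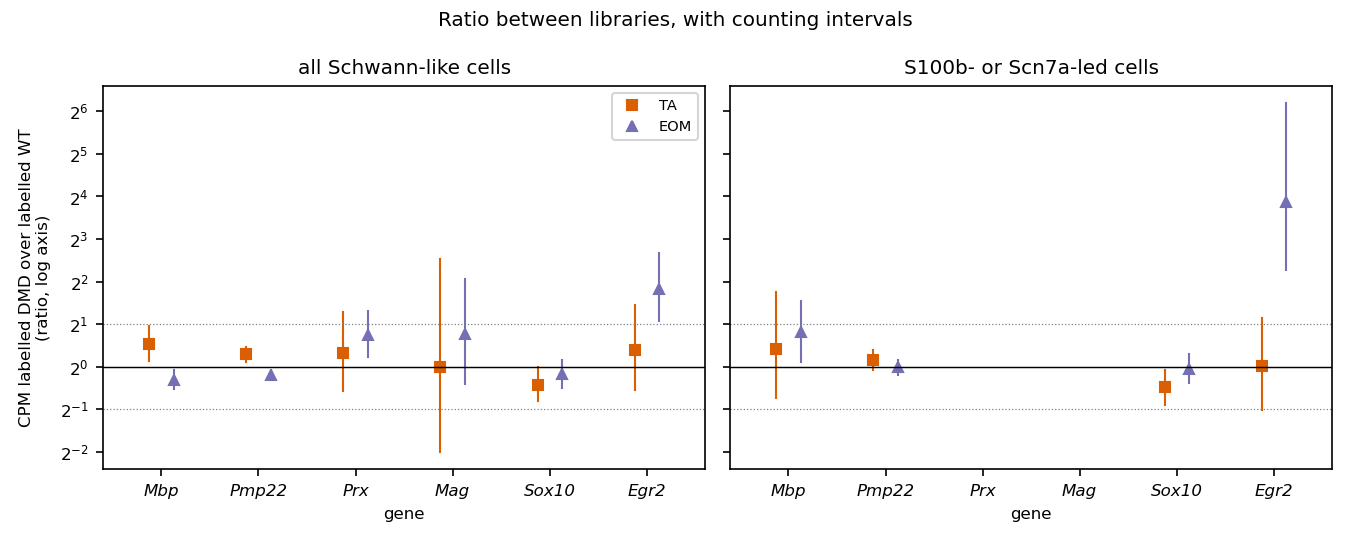
Ratio of CPM in the library labelled DMD over that labelled WT (vertical, log axis) for each gene in TA and EOM, with 95% counting intervals, over all Schwann-like cells (left) and without the Pllp-rich cells (right). Dotted lines mark 2-fold, and genes with no UMI in a library are left out. Egr2 in EOM lies at 3.53 on the left, and Mbp in EOM lies below 1 on the left and above 1 on the right.

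Markers of other cell types moved with the TA comparison. In Schwann-like cells the 8 endothelial markers in the feature table summed to 1268 CPM in TA labelled DMD and 146 in TA labelled WT, beside 28.3 in EOM labelled DMD and 89.2 in EOM labelled WT. All 6 that were tested were past 2-fold higher in TA labelled DMD, as 11.3% of all genes tested were. The tenocyte markers summed to 226 and 10.4 CPM in TA, with Tnmd, Scx, Kera and Mkx at 0 in both libraries. The median depth of Schwann-like cells was 2164 UMIs in TA labelled DMD and 4197 in TA labelled WT, and 34 of 103 and 4 of 24 had under 1000 UMIs. The part of these in the TA values of the 6 genes was not tested.

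Between the muscles, 0 of the 6 genes passed 2-fold in Schwann-like cells of the libraries labelled WT or of those labelled DMD, where 13.7% and 8.04% of genes did. Mbp was 1.84 times (1.40 to 2.46) as high in EOM as in TA in the libraries labelled WT and 1.03 times (0.879 to 1.22) in those labelled DMD. Pmp22 had 1.47 (1.30 to 1.67) and 1.05 (0.971 to 1.14), and Prx 1.20 (0.638 to 2.37) and 1.61 (1.15 to 2.30). Sox10 had 0.774 (0.582 to 1.04) and 0.916 (0.741 to 1.13), and Egr2 0.578 (0.260 to 1.33) and 1.56 (1.08 to 2.27). The Mag intervals of 0.306 to 7.03 and 0.928 to 5.11 included 1. These contrasts share libraries with those between disease states.

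Around the 6 genes, the list with the most genes past 2-fold in TA was that of lipid synthesis. Of 14 genes of cholesterol and fatty acid synthesis, which feed the myelin membrane, 13 were tested in TA. Of these, 8 were past 2-fold lower in TA labelled DMD, as 5.02% of all genes were. The median log2 difference of the 13 was -1.07. Fasn, the fatty acid synthase, was at 27.8 against 114 CPM in TA labelled DMD and WT, from only 8 and 11 UMIs. Insig1, a sterol sensor, was at 66.0 against 198, from 19 and 19 UMIs. Without the Pllp-rich cells 6 of 13 were lower, with a median of -0.98, where 5.13% of all genes were. In EOM none of the 13 was past 2-fold, where 8.53% of all genes were in either direction, and their median was -0.22. These TA values rest on 24 cells of TA labelled WT, and the endothelial markers above moved with them.

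Of the 15 other myelin genes, 13 were tested in TA. Past 2-fold higher in TA labelled DMD were Cldn19 (167 against 41.6 CPM), Cadm4 (184 against 62.4), an adhesion gene of the internode, and Drp2 (59.0 against 20.8, from 17 and 2 UMIs, named after its values were seen), and Fa2h (45.2 against 104), which makes hydroxylated myelin lipids, was lower, where 11.3% of all genes were higher and 5.02% lower. These calls moved with the Pllp-rich cells, 1 of 24 and 8 of 103, and without them 7 of the 15 were tested. Pllp (88.0 against 22.4 CPM) and Cadm4 were then past 2-fold higher, as 10.6% of genes were, Cnp (428 against 908) was lower, and Fa2h was not called. Cldn19 and Drp2 had 2 and 0 UMIs in the S100b- or Scn7a-led cells of all libraries, below the minimum of 10, and could not be tested there. All 15 were tested in EOM. There 1, Pmp2 (a fatty acid carrier of myelin), was past 2-fold lower in EOM labelled DMD, as 4.03% of all genes were. It was at 90.6 against 285 CPM. Pmp2 had no UMI in the 218 S100b- or Scn7a-led cells and was in 31.6% of the 19 Pllp-rich cells, so that value rests on few cells. Their median log2 differences were 0.15 and -0.15. None of 5 tested lineage transcription genes was past 2-fold in either muscle, with Sox2, kept by immature Schwann cells, at 122 against 166 CPM in TA and 195 against 97.7 in EOM. Without the Pllp-rich cells Sox2 was past 2-fold higher in EOM labelled DMD, at 216 against 93.1 CPM, as 4.88% of genes were. Among 11 non-myelinating Schwann genes, Adam23 was past 2-fold lower in TA labelled DMD (79.9 against 208 CPM). Cdh2 was higher there (79.9 against 31.2 CPM) and Ngfr higher in EOM labelled DMD (34.0 against 8.49 CPM), both named after their values were seen. Jun, a factor of the Schwann repair response, was at 1910.3 against 3173 CPM in TA and 1879 against 1236 in EOM, neither past 2-fold. Bdnf was past 2-fold higher in TA labelled DMD on 9 UMIs against 1 and was also named afterwards, and of the 11 repair genes 4 were tested in TA and 1 in EOM. Of 9 tested neuregulin receptor and lamina genes, Erbb3 included, none was past 2-fold in either muscle.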

How the data were processed

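The files hold UMI counts per gene and cell barcode, as the authors deposited them. Counting used Cell Ranger 4.0.0, per the file headers, on rn6, per the submitters' processing notes, and the libraries used Single Cell 3' chemistry 3.1, per the labels' protocols. Annotation, read filtering and cell calling: not given in the sources used here. There are 4 libraries, 1 per group, so no test was run.

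Barcodes with at least 500 UMIs, at least 200 genes and at most 20% mitochondrial UMIs were kept, which left out 3271 of 17504. Total UMIs per library ran from 9468266 to 20685086. The automatic threshold of scrublet marked 29 cells, so the highest scores were removed up to 0.8% per 1000 cells of a library (676 cells). Cells were clustered with scanpy 1.11.5 (2000 variable genes without the 6 genes, 30 components, 15 neighbours, Leiden resolution 1.0) into 32 clusters. Clusters were named from marker lists. Both Schwann candidates were clustered again at resolution 0.5, and a sub-cluster stayed unnamed where at least 3 of its 10 leading genes led other classes. That rule was settled after the clusters were seen. Differences from other studies may come from these rebuilt names.

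Counts were summed per class and library. Ratios are of CPM, log2 differences have 10 CPM added, and a gene was called past 2-fold among genes with at least 10 UMIs in the pair. A group with no UMI is given the limit that 3 counts allow. For shares at equal depth each cell with at least 1000 UMIs was thinned to 1000 UMIs, and shallower cells were left out. Alternatives included TMM factors from edgeR 4.0.16, and intervals come from scipy 1.17.1. The contrast code was tested on simulated data.

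Named were all 6 genes, up to 4 genes per list with the largest log2 difference among those with at least 100 CPM in a library, and the genes most correlated with each of the 6 (5 were computed). Some genes that this rule names are not reported here. The 6 genes, the marker and gene lists and the alternatives were chosen with earlier results of these data known. UMIs remove copies made by PCR, and intervals cover counting error only. Nothing in the labels says how many animals a library holds.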

Additional observations from a re-analysis of the deposited data

Results flagged for a closer look

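Mbp and Pmp22 in Schwann-like cells had opposite directions in the muscles. The log2 difference of the library labelled DMD over that labelled WT was 0.52 in TA and -0.30 in EOM for Mbp, and 0.28 in TA and -0.20 in EOM for Pmp22. With 1 library per group, the difference between the muscles was not tested. Without the Pllp-rich cells the EOM value of Mbp was 0.76 and that of Pmp22 -0.01.

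UMIs of the 6 genes also lay in barcodes that no comparison used. Barcodes left out by the filters held 216 Mbp, 667 Pmp22, 64 Prx, 8 Mag, 79 Sox10 and 63 Egr2 UMIs. Barcodes removed as doublets held 417 Mbp, 1312 Pmp22, 128 Prx, 22 Mag, 30 Sox10 and 91 Egr2 UMIs. Of the Mbp and Mag UMIs in doublets, 405 and 22 were in EOM labelled DMD.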

How the results depend on the processing

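No paired analysis was possible because each group holds 1 library and the labels number no replicates. Of the medians over the 6 genes and the counts of genes past 2-fold, 113 values under an alternative stayed near the reported one, 59 moved and 0 reversed. Of the values of single genes and pairs, 245 stayed, 73 moved and 0 reversed by the same measure. It counts a reversal for called values, so the changes of sign given below are not among the reversals. The 3 alternatives on sub-clusters were chosen after seeing the data. The cause of the moves was not tested, except that a filter on UMIs and thinning change by construction how many genes can pass.

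Egr2 in EOM kept its direction under 13 of 13 alternatives, at log2 differences of 1.51 to 5.14, and Sox10 in TA under 13, at -2.98 to -0.31. Mbp ranged from -1.86 to 2.07 in TA (same sign under 11) and from -0.54 to 0.81 in EOM (8), and Pmp22 from -1.80 to 0.40 in TA (9) and from -0.42 to 0.13 in EOM (11). Prx ranged from 0.00 to 1.34 and Mag from -0.45 to 0.82 in EOM. The number of Schwann-like cells of TA labelled DMD, 103 as reported, ran from 42 with the stricter cell filter (1000 UMIs or more, mitochondrial share 10% or less) to 369 with all cells of both clusters first named Schwann-like. In the other libraries the latter gave 24, 42 and 71.

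The median over the 6 genes in TA turned from 0.29 to -1.71 with all cells of both clusters. Between the muscles labelled DMD it went from 0.34 to 0.81 with each library clustered alone, 0.78 with the shallow mixed sub-cluster and 2.13 with all cells of both clusters.

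The counts of genes past 2-fold, given as higher and lower, were 626 and 277 in TA, 293 and 262 in EOM, 342 and 315 between the muscles labelled WT and 203 and 351 between those labelled DMD. In TA they became 943 and 435 with libraries clustered alone, 282 and 148 with thinned cells, 1041 and 915 with endothelial-like CPM taken off, 944 and 459 with the shallow mixed sub-cluster, 1674 and 1358 with all cells of both clusters, 1566 and 1201 with a minimum of 1 UMI and 43 and 22 with a minimum of 50. The lower count was 178 with TMM factors and 461 with the mean CPM per cell. In EOM they became 456 and 435 with the mean CPM per cell, 505 and 504 with 1 CPM added, 785 and 709 with endothelial-like CPM taken off, 523 and 538 with a minimum of 1 UMI and 42 and 39 with a minimum of 50. The lower count was 165 with thinned cells, and the higher count 514 with all cells of both clusters. Between the muscles labelled WT they became 108 and 141 with the stricter cell filter, 115 and 118 with thinned cells, 727 and 898 with endothelial-like CPM taken off, 1123 and 1491 with a minimum of 1 UMI and 28 and 20 with a minimum of 50. The lower count was 209 with TMM factors and the higher count 576 with the mean CPM per cell. Between the muscles labelled DMD they became 376 and 539 with the mean CPM per cell, 372 and 650 with 1 CPM added, 732 and 993 with endothelial-like CPM taken off, 744 and 794 with all cells of both clusters, 364 and 701 with a minimum of 1 UMI and 31 and 52 with a minimum of 50. The lower count was 547 with libraries clustered alone, 573 with the 6 genes among the variable genes and 654 with the shallow mixed sub-cluster.

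Depth limits Mag most, with 44 UMIs in Schwann-like cells.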
